A study of Homo sapiens with 6 samples.

Results

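The genes described here are the 230 human zinc finger genes with a plain ZNF name and number whose level reached a mean of 3 FPKM over all 6 libraries. FPKM counts fragments relative to transcript length and to the mapped total of its library, so levels can be compared between genes. The tables listed 510 such ZNF genes among 20474 annotated genes, and the rule left out 1 of the 510 by name. Of the other ZNF genes, 139 had a mean of 1 to 3 FPKM and 140 a mean under 1 FPKM, of which 32 were listed at 0 in every library. The levels themselves chose the members, so they are given as a description and not tested.

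The cells were HCT116, a human colorectal cancer cell line labelled wild type. One group received an siRNA against POU2F1 (siPOU2F1, 3 libraries). The other was given a non-targeting siRNA (sicontrol, 3 libraries), and RNA was collected 48 h after transfection. POU2F1 encodes OCT1, a transcription factor that binds the octamer motif. All libraries were polyA libraries made with a directional kit from 2 µg of total RNA. Whether the 3 libraries of a group were separate cultures is not in the labels, and every p therefore reflects variation among these libraries alone, which may be technical.

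Most ZNF proteins bind DNA through C2H2 zinc fingers, short folds in which a pair of cysteines and a pair of histidines hold a zinc ion. Many of them carry a KRAB box, which recruits TRIM28 and, through it, the histone methyltransferase SETDB1, HP1 proteins and histone deacetylases to silence transposons and other repeats. KRAB zinc finger genes arose by repeated duplication and lie in tandem clusters, above all on human chromosome 19. ZNF proteins without a KRAB box include RNA-binding, ribosome-handling and chromatin proteins, and a shared ZNF symbol therefore does not mean a shared function.

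The targeted transcript was lower in every siPOU2F1 library. POU2F1 had 1.87, 1.69 and 1.73 FPKM in siPOU2F1 replicates 1 to 3, against 4.16, 3.60 and 4.26 FPKM in sicontrol replicates 1 to 3. The groups did not overlap, and the mean in siPOU2F1 was 44.0% of that in sicontrol. The log2 fold change was -0.99 with a standard error of 0.14, and the adjusted p was 0.0333 by limma over all tested genes (exact two-sided permutation p = 0.1, the smallest that 3 libraries against 3 allow). The call was lost without any 1 library, siPOU2F1 replicate 3 excepted (limma adjusted p between 0.114 and 0.220), and with no filter on low values (0.0650). Fold changes here are siPOU2F1 minus sicontrol of log2(FPKM + 0.5), so those of low genes are understated. Calls were made at an adjusted p below 0.05 among 11831 genes, those whose mean reached 1 FPKM.

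The 6 libraries did not group cleanly by siRNA. Across the 230 ZNF genes, the log2 values of siPOU2F1 replicate 3 correlated with those of siPOU2F1 replicates 1 and 2 at Pearson's r = 0.838 and 0.844, and with those of sicontrol replicates 1 to 3 at 0.923, 0.933 and 0.928. Between siPOU2F1 replicates 1 and 2 the value was 0.984. These correlations are across genes, which are not independent replicates. POU2F1 itself was as low in siPOU2F1 replicate 3 as in the other two. Each result below is therefore given with all libraries, and the main ones also without siPOU2F1 replicate 3. Of markers of cell types that an HCT116 culture should lack, PTPRC of immune cells and COL3A1 and DCN of fibroblasts were listed at 0 in all 6 libraries. Fibroblast markers summed to between 1.88 and 3.69 FPKM in siPOU2F1 libraries and between 2.17 and 2.69 FPKM in sicontrol libraries over 6 genes. Immune markers (5 genes) summed to between 5.89 and 7.48 FPKM in siPOU2F1 and between 5.87 and 7.48 FPKM in sicontrol, of which CD68 made up 82.0% to 85.8%, and endothelial markers (3 genes) to between 0.575 and 0.681 FPKM in siPOU2F1 and between 0.666 and 0.916 FPKM in sicontrol. Of 8 colorectal epithelial markers 7 had a mean of 1 FPKM or more, with EPCAM at 215 FPKM in siPOU2F1 and 213 FPKM in sicontrol. Their sum, mostly keratins, lay between 3740 and 5166 FPKM in siPOU2F1 and between 2705 and 3627 FPKM in sicontrol, and the part of this shift in the ZNF values was not tested.

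As a group the ZNF genes were expressed at low levels. Their median over all libraries was 5.59 FPKM, against 14.1 FPKM for the 10008 tested genes whose mean reached the same 3 FPKM. Of the 230, 97 had a mean of 3 to 5 FPKM, 87 of 5 to 10 FPKM, 25 of 10 to 20 FPKM and 21 of at least 20 FPKM. Together they held 0.478%, 0.492% and 0.556% of the FPKM sum of annotated genes in siPOU2F1 replicates 1 to 3 and 0.505%, 0.545% and 0.470% in sicontrol replicates 1 to 3, so the 2 groups overlapped. The number of fragments behind these values is unknown, because FPKM tables carry no counts. The threshold fell in a dense part of the range. ZNF30, ZNF273 and ZNF599 lay just inside it at 3.01, 3.01 and 3.06 FPKM, and ZNF74, ZNF512B and ZNF417 just outside at 2.97, 2.96 and 2.95 FPKM. Means by group were at least 3 FPKM for 214 members in siPOU2F1, for 221 in sicontrol and for 205 in both.

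The highest member was ZNF146, known as OZF, a protein that consists almost wholly of zinc fingers, at a mean of 87.5 FPKM. It had 69.3, 71.8 and 105 FPKM in siPOU2F1 replicates 1 to 3 and 96.1, 101 and 81.8 FPKM in sicontrol replicates 1 to 3. ZNF385A, an RNA-binding zinc finger protein, came second at 75.6 FPKM, with 97.0, 93.4 and 68.7 FPKM in siPOU2F1 and 67.1, 61.2 and 66.1 FPKM in sicontrol. The spreads of these first 2 genes overlapped, so their order is not settled by these libraries. ZNF664 followed at 54.8 FPKM, ZNF207 at 44.9 FPKM and ZNF639 at 37.4 FPKM. ZNF207, a spindle and kinetochore protein also called BuGZ, ranged from 41.7 to 49.2 FPKM in siPOU2F1 and from 29.2 to 63.5 FPKM in sicontrol, across the values of its neighbours in the order. A KRAB box was found in none of these 5 genes, and none was called.

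**Figure D1:**
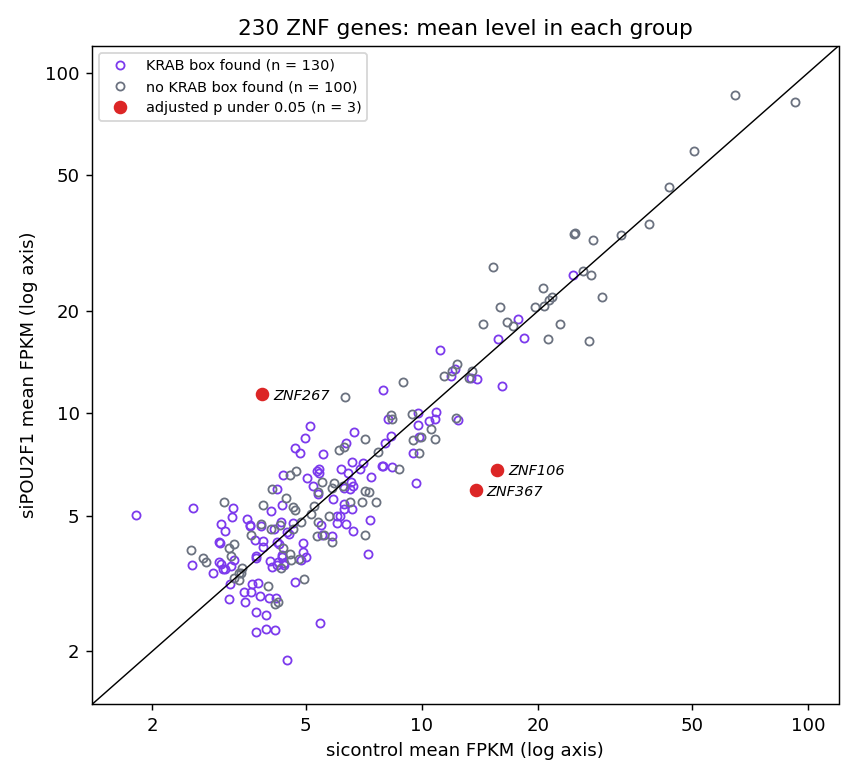
Mean level of each of the 230 ZNF genes in siPOU2F1 (vertical, FPKM, log axis) and sicontrol (horizontal, FPKM, log axis), means of 3 libraries each. A KRAB box was found for open purple circles (n = 130) and not for open grey circles (n = 100), and the line marks equal levels. Most points lie near the line, and the 3 called genes, in red, are ZNF267 above it at 11.4 against 3.86 FPKM, and ZNF106 (6.83 against 15.7 FPKM) and ZNF367 (5.94 against 13.8 FPKM) below it.

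With all 6 libraries, 1 ZNF gene rose and 2 fell. limma called 3 of the 230 (1.3%), against a background of 1.24% of all tested genes. One was higher in siPOU2F1 (0.435%, background 0.397%) and 2 were lower (0.87%, background 0.845%). These shares lie near the background and are no result about the members. Their median log2 fold change was 0.00 (111 positive, 119 negative), beside -0.01 over all tested genes. At an unadjusted p under 0.05 there were 43 members, or 18.7%, against 18.1% of all tested genes. Among the 10008 tested genes whose mean reached 3 FPKM, 19.4% had such a p and 1.42% were called. In bulk RNA, fewer cells of a kind and less RNA per cell cannot be told apart.

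ZNF267, a KRAB zinc finger gene with 14 finger matches, rose in the knockdown. ZNF267 had 12.99, 11.8 and 9.31 FPKM in siPOU2F1 replicates 1 to 3, against 3.72, 3.52 and 4.35 FPKM in sicontrol replicates 1 to 3. The lowest siPOU2F1 library was more than double the highest sicontrol library. The means were 11.4 ± 1.88 FPKM in siPOU2F1 and 3.86 ± 0.430 FPKM in sicontrol (SD, n = 3 each), and limma gave a log2 fold change of 1.44 (standard error 0.16, adjusted p = 0.0165). The gene lies at chr16:31873758-31917357 on the plus strand of GRCh38, apart from the large chromosome 19 clusters.

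ZNF106, an RNA-binding protein whose mouse counterpart Zfp106 is needed to maintain motor neurons and muscle, fell. ZNF106 had 7.36, 6.69 and 6.43 FPKM in siPOU2F1 replicates 1 to 3, against 16.8, 15.7 and 14.5 FPKM in sicontrol replicates 1 to 3. It had the lowest p of the 230 genes, and replicate 3 of the knockdown was the lowest of the 6 libraries. The means were 6.83 ± 0.481 and 15.7 ± 1.16 FPKM (siPOU2F1 and sicontrol, SD, n = 3 each), and the log2 fold change was -1.14 with a standard error of 0.12 (limma, adjusted p = 0.0150). ZNF106 lies at chr15:42412823-42491141 on the minus strand.

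ZNF367, a finger protein listed here with the growth and cancer regulators, also fell. ZNF367 had 4.58, 5.77 and 7.48 FPKM in siPOU2F1 replicates 1 to 3, against 13.1, 15.5 and 12.8 FPKM in sicontrol replicates 1 to 3. The groups were well apart, with siPOU2F1 replicate 3 the nearest to sicontrol. The means were 5.94 ± 1.46 FPKM in siPOU2F1 and 13.8 ± 1.45 FPKM in sicontrol (SD, n = 3 each), and limma gave a log2 fold change of -1.17 (standard error 0.19, adjusted p = 0.0408). ZNF367 lies at chr9:96385941-96418329 on the minus strand.

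Each of these 3 calls was lost without any 1 of 5 libraries. Without siPOU2F1 replicate 3 the adjusted p (limma) was 0.00424 for ZNF267, 0.00564 for ZNF106 and 0.00575 for ZNF367. With any other library left out it lay between 0.0751 and 0.134 for ZNF267, between 0.0751 and 0.115 for ZNF106 and between 0.114 and 0.216 for ZNF367, with the direction kept. The call of ZNF367 was also lost with no filter on low values (limma adjusted p = 0.0780) and without the mean-variance trend (0.0539).

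The fingers of the called genes differ in number and in setting. A search of the longest coding sequence for a cysteine pair 2 to 4 residues apart, 12 residues, and a histidine pair found 14 fingers in ZNF267, 3 in ZNF106 and 2 in ZNF367. The first match of ZNF267 and ZNF367 and the second of ZNF106 are shown because each lies within 1 exon, as coding-strand DNA from the GENCODE 29 transcripts on GRCh38. The capitals mark the codons of the cysteines and histidines that the search matched, and whether they hold zinc was not tested.
ZNF267: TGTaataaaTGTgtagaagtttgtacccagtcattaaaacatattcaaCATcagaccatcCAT
ZNF106: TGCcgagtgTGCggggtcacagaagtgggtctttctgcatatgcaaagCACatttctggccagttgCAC
ZNF367: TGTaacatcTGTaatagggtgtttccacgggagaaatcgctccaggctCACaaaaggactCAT
They lie at chr16:31915054-31915116 in exon 4 of 4 for ZNF267, at chr15:42457074-42457142 in exon 4 of 22 for ZNF106 and at chr9:96398168-96398230 in exon 2 of 5 for ZNF367. ZNF267 and ZNF367 have the spacing of the classical finger in this stretch, 63 bases from the first cysteine codon to the last histidine codon, whereas ZNF106 spans 69 bases with its last histidine farther on.

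Below the threshold, ZNF616 came closest among the higher genes. This KRAB gene of the chromosome 19 clusters, with 21 finger matches, had 4.23, 3.98 and 6.86 FPKM in siPOU2F1 replicates 1 to 3, against 1.73, 1.86 and 1.86 FPKM in sicontrol replicates 1 to 3. The groups did not overlap, and siPOU2F1 replicate 3 was the farthest from sicontrol. Its log2 fold change was 1.22 with a standard error of 0.22, and its adjusted p was 0.0558 by limma. It passed under quantile normalization (limma adjusted p = 0.0382), under median scaling (0.0413), with array weights (0.000547) and without siPOU2F1 replicate 3 (0.00862). With any other library left out the limma adjusted p lay between 0.140 and 0.269. It was 0.108 with no filter on low values and 0.297 with the replicate number as a block.

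The other positive genes of lowest p were smaller in size. ZNF525 had 9.15, 7.45 and 7.10 FPKM in siPOU2F1 and 4.59, 4.45 and 5.08 FPKM in sicontrol (log2 fold change 0.68, limma adjusted p = 0.0744). ZNF766 had 6.92, 6.23 and 6.62 FPKM in siPOU2F1 and 4.52, 4.20 and 4.37 FPKM in sicontrol (0.54, limma adjusted p = 0.0852). Neither gene, both on chromosome 19, overlapped between groups. ZNF343, ZNF134, ZNF717 and ZNF317 had log2 fold changes of 0.60, 0.50, 0.45 and 0.53 and limma adjusted p between 0.106 and 0.123. ZNF717 was the most even of them, at 12.5, 12.3 and 12.3 FPKM in siPOU2F1 and 9.18, 8.02 and 9.58 FPKM in sicontrol. All of these genes were higher in every siPOU2F1 library than in any sicontrol library.

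Among the negative genes, ZNF20 came next after the called ones. ZNF20 had 1.85, 2.32 and 3.12 FPKM in siPOU2F1 and 5.39, 6.496 and 4.47 FPKM in sicontrol, a log2 fold change of -1.03 with a standard error of 0.21 (limma, adjusted p = 0.0744). The value is uncertain as a measure of ZNF20 alone, since 71.9% of its 50-base words also occur in the readthrough gene ZNF625-ZNF20. ZNF687, which works with ZNF592, ZNF532 and ZMYND8 in a chromatin complex called Z3, had 3.66, 4.79 and 4.75 FPKM in siPOU2F1 and 7.504, 6.36 and 7.55 FPKM in sicontrol (-0.65, limma adjusted p = 0.105). ZNF44, ZNF780A, ZNF587 and ZNF511 had log2 fold changes of -0.73, -1.03, -0.58 and -0.35 with limma adjusted p between 0.166 and 0.230. ZNF780A varied most of all 230 genes, with a log2 range of 2.07 over the 6 libraries. Its siPOU2F1 libraries lay at 1.54, 1.25 and 2.88 FPKM and its sicontrol libraries at 3.65, 6.85 and 2.89 FPKM, so replicate 3 of both groups nearly coincided. ZNF511 shares 23.5% of its 50-base words with the readthrough gene ZNF511-PRAP1, and ZNF587 shares 19.6% with its near copy ZNF417.

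**Figure D2:**
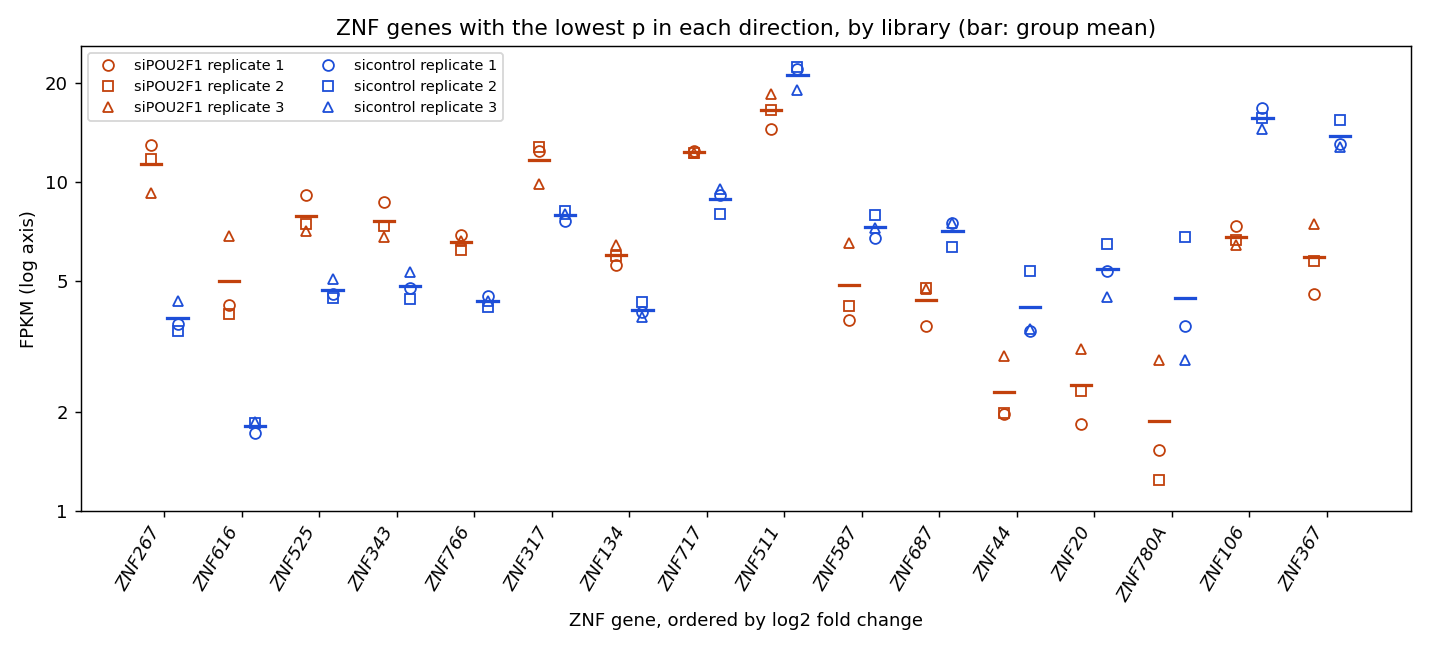
FPKM (vertical, log axis) in each siPOU2F1 library (orange, left of each pair) and each sicontrol library (blue, right) for the 8 ZNF genes of lowest p in each direction, ordered by log2 fold change; symbols give the replicate number and bars the group mean (n = 3). ZNF267, ZNF106 and ZNF367 show a wide gap between groups, while ZNF780A shows replicate 3 of both groups at almost the same level (2.88 and 2.89 FPKM).

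More members were above every sicontrol library than below every one. In 39 of the 230 (17%, background 11.3%) all 3 siPOU2F1 libraries exceeded all 3 sicontrol libraries, and in 17 (7.39%, background 12%) all 3 were lower. The log2 fold changes of the 39 ran from 0.17 to 1.44 with a median of 0.41, and those of the 17 from -1.17 to -0.13 with a median of -0.42. Only 1 of the 39 and 2 of the 17 were called by limma. KRAB genes made up 23 of the 39 and 11 of the 17. Per library the members moved unevenly. Their median log2 distance from the sicontrol mean was -0.10 in siPOU2F1 replicate 1, -0.06 in replicate 2 and 0.15 in replicate 3, beside -0.04, -0.03 and 0.04 over all tested genes. The part of replicate 3, in which ZNF genes ran higher, in the excess over the background was not tested.

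Leaving out siPOU2F1 replicate 3 changed the picture more than any other single library. limma then called 30 members higher (13%, background 9.29%) and 49 lower (21.3%, background 15.7%), 79 in all. Without any 1 of the other 5 libraries no member was called, with 18 to 37 members at an unadjusted p under 0.05. Of the 79, 42 had siPOU2F1 replicate 3 on the same side of the sicontrol mean, and in 28 it lay beyond every sicontrol library on that side. Their median distance from the sicontrol mean in the called direction was 0.72 in siPOU2F1 replicate 1, 0.66 in replicate 2 and 0.04 in replicate 3 (log2 scale). Replicates 1 and 2 were used for those calls, so their distances only describe the choice, and replicate 3 is the library that the calls did not use. The sicontrol libraries, which set the side, were used for them too. Matching counts over all genes called in this fit were not taken. The 42 and the 28 are therefore descriptions and no result about the members. The background shares, over all tested genes, also went up in this fit. Of the 10008 tested genes whose mean reached 3 FPKM, limma called 26.5% in it, against 34.35% of the members.

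Single genes show how far that library stood from the other two. ZNF189, a KRAB gene on chromosome 9, had 1.79, 2.19 and 7.61 FPKM in siPOU2F1 replicates 1 to 3 and 7.21, 8.20 and 6.30 FPKM in sicontrol replicates 1 to 3. Replicates 1 and 2 were far below sicontrol and replicate 3 was within it. The other genes of this paragraph were chosen after their values were seen. ZNF594 had 1.54, 1.61 and 6.68 FPKM in siPOU2F1 and 4.20, 5.91 and 4.74 FPKM in sicontrol. ZNF75A showed the same order, at 1.26, 1.52 and 5.63 FPKM in siPOU2F1 and 3.77, 4.98 and 3.99 FPKM in sicontrol. In both, replicate 3 exceeded every sicontrol library. ZNF581 lay the other way, at 31.1, 35.4 and 14.2 FPKM in siPOU2F1 and 14.3, 13.6 and 18.0 FPKM in sicontrol, and so did ZNF836, at 6.76, 6.29 and 2.82 FPKM in siPOU2F1 and 2.42, 1.92 and 3.33 FPKM in sicontrol. ZNF410, which in red blood cell precursors activates the chromatin remodeller gene CHD4, had 10.6, 12.4 and 26.0 FPKM in siPOU2F1 and 25.7, 32.1 and 23.3 FPKM in sicontrol, but 82.5% of its 50-base words are shared with AC005520.1, which overlaps it. None of these genes was called with all libraries (limma adjusted p between 0.238 and 0.398).

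**Figure D3:**
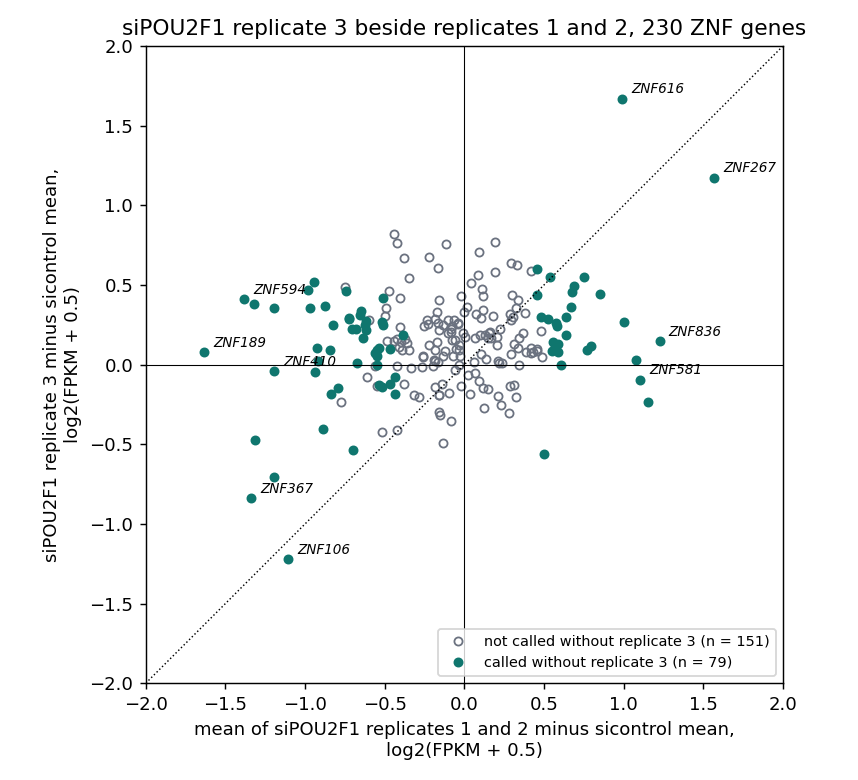
Difference of siPOU2F1 replicate 3 (vertical) and of the mean of siPOU2F1 replicates 1 and 2 (horizontal) from the sicontrol mean, in log2(FPKM + 0.5), for each of the 230 ZNF genes; filled points are the 79 called by limma without replicate 3, and the dotted line marks equal differences. Points such as ZNF267 (upper right) and ZNF106 (lower left) lie near the line, whereas ZNF189, ZNF594 and ZNF581 differ far more horizontally than vertically.

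The spread within groups was wider in the knockdown. Over the 230 genes the median within-group SD was 0.24 in siPOU2F1 and 0.16 in sicontrol on the log2 scale, beside 0.21 in siPOU2F1 and 0.15 in sicontrol for the 10008 tested genes at or above 3 FPKM. The median range over all 6 libraries was 0.66 for the members and 0.60 for those genes. A range of at least 1, a doubling, was seen in 47 members (20.4%) and in 18.2% of those genes. The steadiest members were ZNF83, at 20.8, 19.7 and 21.5 FPKM in siPOU2F1 and 22.01, 19.8 and 20.2 FPKM in sicontrol, and ZNF337, at 8.31, 9.06 and 8.42 FPKM in siPOU2F1 and 8.31, 8.02 and 8.58 FPKM in sicontrol.

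Divided by structure, a KRAB box was found in 130 members and not in 100. Only the longest coding sequence of each gene was searched, so some of the 100 may carry a KRAB box that was missed. KRAB members had more fingers, with a median of 11.5 against 6 in the others, and 80 of the 130 lay on chromosome 19, against 21 of the 100. Their median level was 5.01 FPKM, against 6.53 FPKM, and only ZNF3 of the 130 reached a mean of 20 FPKM. In the comparison, 1 KRAB member was called higher (ZNF267) and 0 lower, with a median log2 fold change of -0.04 and 28 at an unadjusted p under 0.05 (21.5%, against 18.1% of all tested genes). Of the members without a KRAB box 0 were called higher and 2 lower (ZNF106 and ZNF367), with a median of 0.01 and 15 at an unadjusted p under 0.05 (15.0%). Called shares were 0.769% of the KRAB members and 2.0% of the others, beside the background of 1.24%. Without siPOU2F1 replicate 3, limma called 17 KRAB members higher and 25 lower, and 13 of the others higher and 24 lower (32.3% and 37.0% called, against 24.97% of all tested genes). The difference between both classes was not tested. No C2H2 match at all was found in 5 members, ZNF330, ZNF503, ZNF703, ZNF738 and ZNF839. The most fingers were the 31 of ZNF91 and of ZNF142.

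Chromosome 19 held 101 of the 230 members, and limma called 0 of them (background 1.24%), with 22 at an unadjusted p under 0.05 (21.8%, against 18.1% of all tested genes). Without siPOU2F1 replicate 3 it called 13 of them higher and 17 lower (29.7%, against 24.97% of all tested genes). Their median log2 fold change was 0.00, and that of the 129 on other chromosomes was -0.02. Members that lie within 100000 bases of another ZNF gene were grouped into genomic clusters, and 9 clusters held at least 5 members. The cluster at chr19:53066606-53580269 was the one with the highest median, 0.46. All 6 of its members, ZNF160, ZNF845, ZNF525, ZNF765, ZNF761 and ZNF331, had positive log2 fold changes, from 0.11 in ZNF331 to 0.68 in ZNF525. In ZNF845, ZNF525, ZNF765 and ZNF761 every siPOU2F1 library exceeded every sicontrol library (66.7%, against 17% of the 230 members and 11.3% of all tested genes). The median of the cluster was 0.42, 0.52 and 0.41 in siPOU2F1 replicates 1 to 3, so here replicate 3 went with replicates 1 and 2. ZNF761, the highest of the 6, had 15.5, 16.9 and 13.7 FPKM in siPOU2F1 and 10.4, 10.5 and 12.5 FPKM in sicontrol. ZNF845 had 4.66, 6.47 and 4.76 FPKM in siPOU2F1 and 3.25, 2.78 and 3.71 FPKM in sicontrol. None of the 6 was called (limma adjusted p between 0.0744 and 0.693), and the cluster was picked out after its values were seen. ZNF525 and ZNF765 share 71.9% of their protein sequence, and between 7.0% and 10.8% of the 50-base words of ZNF525, ZNF845, ZNF761 and ZNF765 occur in another gene, so part of their fragments may be shared.

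The neighbouring stretch of chromosome 19, chr19:51804816-52962911, held 17 members but showed no common direction. There, 8 log2 fold changes were positive and 9 negative, with a median of 0.00. ZNF616, ZNF766 and ZNF836 lay in it on the positive side at 1.22, 0.54 and 0.87. A cluster of 5 members in which no KRAB box was found, ZNF579, ZNF524, ZNF865, ZNF580 and ZNF581 at chr19:55476332-55645622, was also positive throughout, with a median of 0.30. Of these only ZNF865 was higher in every siPOU2F1 library than in any sicontrol library (20%, background 11.3%). It had 3.91, 4.17 and 4.01 FPKM in siPOU2F1 and 2.94, 3.45 and 3.13 FPKM in sicontrol (0.30, limma adjusted p = 0.285). On the negative side, the cluster with ZNF20 and ZNF44 at chr19:11721265-12640098 had a median of -0.23, with 5 of its 6 members negative.

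**Figure D4:**
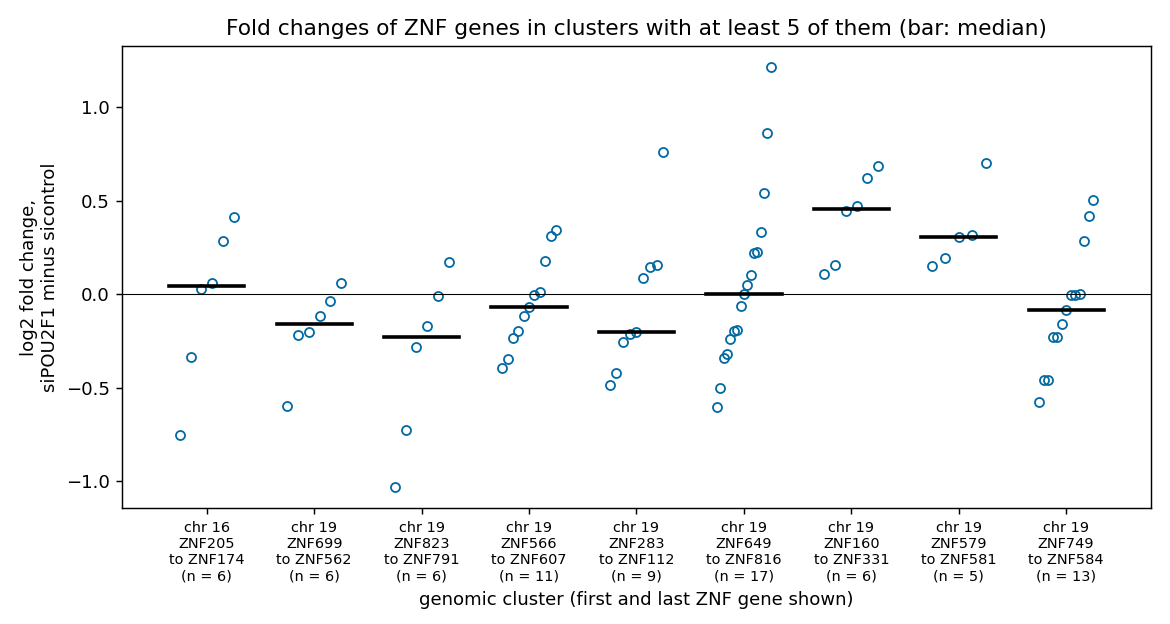
Log2 fold change (siPOU2F1 minus sicontrol, vertical) of each ZNF gene in the 9 genomic clusters with at least 5 of them, named by first and last gene; circles are genes and bars medians. The cluster from ZNF160 to ZNF331 lies wholly above 0 with a median of 0.46, as does that from ZNF579 to ZNF581 (0.30), and the others straddle 0.

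Among the RNA and ribosome factors 11 members were listed, and 1 was called, ZNF106, on the lower side (9.09%, background 1.24%). The list is short and was chosen with earlier results of these data known, so a share set by 1 gene is no result about it. At an unadjusted p under 0.05 there were 3 (27.3%, against 18.1% of all tested genes), and the median log2 fold change was 0.02. ZNF622, which acts in maturation of the large ribosomal subunit, had 22.9, 18.9 and 19.98 FPKM in siPOU2F1 and 13.9, 17.2 and 16.6 FPKM in sicontrol (0.36, limma adjusted p = 0.217). ZNF385A had a log2 fold change of 0.40 (limma adjusted p = 0.227). Both genes were higher in every siPOU2F1 library than in any sicontrol library (18.2% of the 11, background 11.3%). ZNF593, whose yeast counterpart Bud20 helps to export the large ribosomal subunit, was level at 21.5, 20.8 and 23.7 FPKM in siPOU2F1 and 22.9, 22.1 and 20.2 FPKM in sicontrol. It lies wholly within a gene on the opposite strand, and the strand setting of the counting is not given in the sources used here. ZNF598, the ubiquitin ligase that marks collided ribosomes, had 4.44, 6.13 and 5.40 FPKM in siPOU2F1 and 4.12, 5.26 and 4.53 FPKM in sicontrol. ZNF638, ZNF326, ZNF830, ZNF346, ZNF277 and ZNF207 had log2 fold changes between -0.35 and 0.15 and limma adjusted p between 0.398 and 0.921.

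The chromatin cofactors gave 9 members of the 15 listed. limma called 0 (background 1.24%), with ZNF687 the only one at an unadjusted p under 0.05, and the median log2 fold change was -0.01. ZNF217, an oncogene product that works with histone demethylase and CoREST complexes, was level, at 28.96, 28.2 and 21.5 FPKM in siPOU2F1 and 28.5, 25.6 and 24.5 FPKM in sicontrol. ZNF451, a SUMO ligase, was one of the steadiest, at 12.8, 12.98 and 12.9 FPKM in siPOU2F1 and 11.5, 11.8 and 11.1 FPKM in sicontrol. ZNF644, a partner of the histone methyltransferases G9a and GLP, had a log2 fold change of 0.17, and ZNF592, a partner of ZNF687, one of -0.02. ZNF512 had 0.33, with 35.7% of its 50-base words shared with AC074091.1, ZNF219 had 0.05, ZNF518A had -0.32 and ZNF827 had -0.43.

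Of the growth and cancer regulators, 6 of the 11 listed were members, and 1 was called, ZNF367 (16.7%, background 1.24%), which was also the only one at an unadjusted p under 0.05. That share rests on 1 gene of a short list chosen with earlier results known, and is no result about the list. ZNF148, a GC-box binding factor, had 7.05, 6.87 and 8.97 FPKM in siPOU2F1 and 9.49, 11.1 and 8.89 FPKM in sicontrol (-0.35, limma adjusted p = 0.284). Its relative ZNF281 was level at 5.08, 4.97 and 5.17 FPKM in siPOU2F1 and 4.85, 5.66 and 5.02 FPKM in sicontrol. ZNF24 and ZNF703 had log2 fold changes of 0.00 and 0.07, and ZNF331 had 0.11.

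The binders of transposons and of ZNF clusters, 6 members of the 10 listed, gave 0 calls by limma (background 1.24%), with 2 at an unadjusted p under 0.05 (33.3%, against 18.1% of all tested genes). Their median log2 distances from sicontrol were -0.59, -0.41 and 0.18 in siPOU2F1 replicates 1 to 3, so replicate 3 stood apart here too. ZNF274, which brings SETDB1 to the ends of ZNF genes, had 6.68, 6.18 and 15.9 FPKM in siPOU2F1 and 12.4, 15.1 and 9.62 FPKM in sicontrol. ZNF91, which silences SVA transposons, had 5.76, 5.74 and 3.40 FPKM in siPOU2F1 and 3.54, 2.27 and 3.88 FPKM in sicontrol. Replicates 1 and 2 of the knockdown lay below every sicontrol library in ZNF274 and above every one in ZNF91. Replicate 3 lay above every sicontrol library in ZNF274 and within their range in ZNF91. ZNF587, ZNF765 and ZNF320 had log2 fold changes of -0.58, 0.47 and -0.07, and nearly all of the 50-base words of ZNF320 (99.5%) occur in ZNF468.

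Among the partners through which KRAB proteins silence, HDAC1 was called. Of 28 listed genes 27 were tested, with 1 called higher and 0 lower (3.7%, background 1.24%) and a median log2 fold change of 0.00. This list too was chosen with earlier results known, so a share set by 1 gene is no result about it. At an unadjusted p under 0.05 there were 8 (29.6%, against 18.1% of all tested genes). Without siPOU2F1 replicate 3 limma called 2 higher and 7 lower (33.3% called, against 24.97% of all tested genes). HDAC1, a histone deacetylase, rose. It had 48.3, 53.2 and 54.4 FPKM in siPOU2F1 and 26.9, 31.6 and 33.1 FPKM in sicontrol, a log2 fold change of 0.76 with a standard error of 0.12 (limma, adjusted p = 0.0361). CBX1, the HP1 beta protein, had 87.8, 87.2 and 82.8 FPKM in siPOU2F1 and 61.8, 58.7 and 62.1 FPKM in sicontrol (0.50, limma adjusted p = 0.0538). TRIM28 had 88.2, 88.6 and 76.4 FPKM in siPOU2F1 and 61.0, 68.1 and 80.1 FPKM in sicontrol, with a log2 fold change of 0.28 and overlapping groups, and SETDB1 had one of 0.05. The call of HDAC1 was lost with any 1 library left out, siPOU2F1 replicate 3 excepted (limma adjusted p between 0.0968 and 0.198).

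Other zinc finger families gave no calls. limma called 0 of 15 ZFP genes, 0 of 35 ZBTB genes, 0 of 12 ZSCAN genes and 0 of 4 ZKSCAN genes. It also called 0 of the 139 ZNF genes at 1 to 3 FPKM (background 1.24%). At that share, 0 calls in sets of these sizes is no result about them. At an unadjusted p under 0.05 there were 2, 5, 1, 0 and 9 of these genes (13.3%, 14.3%, 8.33%, 0% and 6.47%, against 18.1% of all tested genes). The 139 were chosen for a low level, with a median of 2.04 FPKM against 11.1 FPKM for all tested genes. The part of level in their share was not tested. Median log2 fold changes were -0.11, -0.07, -0.26, -0.02 and -0.07 in the same order, beside 0.00 for the 230 members, and no difference between the families was tested.

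The octamer that POU2F1 binds, spelled ATGCAAAT on either strand, was looked for from 250 bases before to 50 bases after each listed start in the RefSeq promoter table for GRCh38. A promoter was listed for 197 of the 230 members. The octamer was present in 6 of them (3.05%), against 2.19% of the 27305 genes in the table. The matches are shown because 5 of the 6 lie in neighbouring genes of chromosome 7, where 4 share the 7 bases before the octamer, which is in capitals.
ZNF107: tacaggttaaATGCAAATgccttctggg
ZNF138: acaaggttaaATGCAAATgccctctggg
ZNF273: aaggttaaATGCAAATaccccgtggg
ZNF92: acaaggttaaATGCAAATactgtctggg
ZNF680: gggttatATGCAAATactctctggt
ZNF700: tttggctgaaATGCAAATatccaataac
In the chromosome 7 genes the octamer begins between 236 and 243 bases before the start. The stretches printed, flanks included, are chr7:64665887-64665914 for ZNF107, chr7:64794178-64794205 for ZNF138, chr7:64903023-64903048 for ZNF273 and chr7:65373605-65373632 for ZNF92, all on the plus strand, and chr7:64563297-64563321 on the minus strand for ZNF680. In ZNF700 the octamer begins 209 bases before the start, within the printed stretch chr19:11924888-11924915 on the plus strand. Tandem copies share sequence, so the chromosome 7 matches are not independent of each other. ZNF273 and ZNF680 share 70.8% of their protein sequence.

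None of the 6 genes with the octamer was called by limma with all libraries, and 0 had an unadjusted p under 0.05. In 1 of the 6 all siPOU2F1 libraries were lower than all sicontrol libraries (16.7%, background 12%). Without siPOU2F1 replicate 3 limma called 1 of the 6 lower (16.7%, against 24.97% of all tested genes called). That was ZNF107, at -0.72 with a limma adjusted p of 0.0140. Log2 fold changes were -0.39 in ZNF107, -0.13 in ZNF138, -0.13 in ZNF273, -0.11 in ZNF92, 0.39 in ZNF680 and -0.17 in ZNF700. ZNF107 had 3.50, 3.38 and 7.45 FPKM in siPOU2F1 and 5.89, 6.53 and 5.62 FPKM in sicontrol. ZNF680 had 8.82, 9.96 and 7.70 FPKM in siPOU2F1 and 6.01, 5.80 and 8.20 FPKM in sicontrol. The groups overlapped in both. None of ZNF267, ZNF106 and ZNF367 was among the 6.

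The word AACTGCA in 3′ UTRs had been picked out earlier from fold changes of these same libraries, so its relation to them is a description. It was present in 22 of the 223 members with a 3′ UTR of at least 20 bases (9.87%), against 12.4% of the 11518 tested genes with one. The 22 had a median log2 fold change of -0.07 and the other 201 one of 0.01, beside -0.16 for all tested genes with the word. Of the 22, 1 was called lower (4.55%, against 3.56% of all tested genes with the word), ZNF367, which holds 2 copies, and ZNF20 holds 1. ZNF106 and ZNF267 hold none. The sites of ZNF367 and ZNF20 are shown because those genes are among the lowest in p on the negative side, with the word in capitals and 10 bases on each side.
ZNF367, first copy: ggtgagagagAACTGCActtttttaat
ZNF367, second copy: aaatagttttAACTGCAagtgtgttaa
ZNF20: tgtttataacAACTGCAtactaacaat
They lie at chr9:96388062-96388088 and chr9:96387108-96387134 in exon 5 of 5 of ZNF367 and at chr19:12131736-12131762 in exon 4 of 4 of ZNF20, all on the minus strand of GRCh38. A match is a description of the letters and not a site of regulation. A second such word, AGAATGA, was present in 13.5% of members, against 14.9% of tested genes, and its 30 members had a median log2 fold change of -0.14, beside -0.09 for all tested genes with the word. limma called 0 of the 30 (2.16% of all tested genes with the word), with 9 at an unadjusted p under 0.05 (30%, against 21.9% of tested genes with the word and 18.1% of all tested genes).

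The sequence that related genes share limits some of these values. Of the 230 members, 106 shared no 50-base word with a transcript of another gene, while 18 shared at least 20% of theirs. How fragments that match several genes were assigned is not given in the sources used here, and the levels of those 18 are uncertain. The 18 had a median log2 fold change of -0.18, with 0 called by limma (background 1.24%) and 5 at an unadjusted p under 0.05 (27.8%, against 18.1% of all tested genes). Each of the 3 called genes shared under 1% of its words.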

How the data were processed

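PolyA RNA was sequenced from HCT116 cells, 3 libraries per siRNA. Per the file headers, each library's table as deposited by the authors holds FPKM. Tools listed in the submitters' processing notes are StringTie 2.1.2, HISAT2 2.0.4 and Bowtie2 2.2.5, with build hg38 and no roles. Annotation release, filters and strand setting were not given in the sources used here, and depth is unknown.

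Values were used as deposited. limma 3.58.1 (R 4.3.3) with a mean-variance trend was fitted to log2(FPKM + 0.5) of the 11831 annotated genes averaging 1 FPKM or more, with Benjamini-Hochberg adjustment over all of them and group as the only term. The fit was checked on simulated data with independent noise and no library that stood apart. That check does not bear on the behaviour of siPOU2F1 replicate 3. An exact permutation test was added for POU2F1. The 2308 assembled transcripts were not used.

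GENCODE 29 on GRCh38 gave positions and, from the basic transcript with the longest coding sequence, fingers, 3′ UTRs and 50-base words. A KRAB box was a match at 10 or more of 23 conserved positions. Promoters came from RefSeq. Python 3.11.15, pandas 2.3.3, scipy 1.17.1, biopython 1.88 and matplotlib 3.10.9 were used. Percent protein identity is identical residues of a global alignment over the longer protein.

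Members and lists were chosen with earlier results of these data known. Genes named are POU2F1, called members, the 8 of lowest p in each direction, the 5 highest, the 3 on each side of the threshold, members of the role lists, near copies of these over 70% identity and their neighbours, and the 2 of lowest p in the KRAB list; others were chosen after their values were seen. Alternatives were other pseudocounts and filters, quantile and median scaling, array weights, no trend, a replicate block and leaving out each library.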

Additional observations from a re-analysis of the deposited data

How the results depend on the processing

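With all libraries limma called 147 genes, 1 member higher, 2 members lower, 1 gene of the KRAB silencing list and 0 of the other zinc finger families. No filter on low values gave 72 genes, 1 member lower and 0 of the KRAB list. Fitting without the trend gave 93 genes, 1 member lower and 0 of the KRAB list. Quantile normalization and median scaling each gave 2 members higher, and quantile normalization and a minimum mean of 3 FPKM each gave 2 of the KRAB list. Array weights gave 5963 genes, 56 members higher, 71 lower, 12 of the KRAB list and 88 of the other families. Leaving out 1 library gave from 0 to 2954 genes, from 0 to 30 members higher, from 0 to 49 lower, from 0 to 9 of the KRAB list and from 0 to 47 of the other families. The highest value in each range was without siPOU2F1 replicate 3. Without sicontrol replicate 2 or 3 there were 5 or 9 genes and without any of the other 3 libraries 0, with at least 1176 genes at an unadjusted p under 0.05. The causes were not tested.

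POU2F1 kept a log2 fold change of -0.99 without the filter, with an adjusted p of 0.0650 by limma. Its log2 fold change lay between -1.06 and -0.95 when 1 library was left out, and only without siPOU2F1 replicate 3 did it keep its call. The median of the members lay between -0.08 and 0.03 under all alternatives, so its sign depends on the setting.

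Whether the replicate numbers pair the libraries is not in the labels. Deviations of same-numbered libraries from their group means correlated at 0.133, -0.545 and -0.512 over tested genes, and no siPOU2F1 library correlated best with its own number. Deviations within a group depend on each other, so these values cannot settle a pairing. With the replicate number as a block, limma called 0 genes, 0 members higher, 0 lower and 0 of the KRAB list, with 1208 genes and 19 members at an unadjusted p under 0.05, and POU2F1 kept -0.99 with an adjusted p of 0.297. Over the 16 members of lowest p and 15 alternatives, 192 of 240 values kept their direction and their side of the threshold, 28 passed it, 20 no longer did and none changed direction. The depth of the libraries is unknown, so what it limits could not be given.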
